A study of Mus musculus with 2 samples.

Results

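The genes described here are 38 mouse cell cycle genes, which were chosen by name for their known roles. They comprise 22 genes transcribed mainly in the G2 and M phases, 15 genes of S phase or of the step into it, and Stmn1, which encodes the microtubule-destabilising protein stathmin and was kept apart from both groups. Of the 38 genes, 37 had a row among the 19059 genes of both count files: 21 G2/M genes, 15 S genes and Stmn1. The expression of Ccnb1, which encodes the mitotic cyclin B1, was not analysed here, and the gene enters only the counts of promoters.

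The study compared the skin of 1 wildtype C57BL/6J mouse with that of 1 Eppk1 knockout (Eppk1-/-) mouse backcrossed into C57BL/6J. Eppk1 encodes epiplakin, a plakin that binds keratin filaments in epithelia, and it is deleted in the whole animal rather than in the epidermis alone. Both mice were untreated, and each gave 1 library of dissociated whole skin from a dorsal punch biopsy, prepared with the 10x Genomics Flex assay, in which pairs of probes are ligated on fixed RNA and counted by unique molecular identifiers (UMIs). With 1 library per genotype there was no replicate and no test between genotypes was possible: each value is given with its exact interval at 95% confidence, which covers counting error only, and a difference between the mice cannot be told apart from a difference between the libraries.

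Cells copy their DNA in S phase and divide in M phase, and many of the genes needed for each step are transcribed only around the time they act. The step into S phase is driven by E-type cyclins and by E2F transcription factors, and the step into mitosis by cyclin A2, the B-type cyclins and the kinase CDK1. In the epidermis most division takes place in the basal layer, and cells that move up into the spinous and granular layers leave the cycle and differentiate.

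The promoters of the 2 groups are shown first, since the G2/M genes below were found together in few cells and most S genes were not, and the letters of the promoters differed between the groups as well. RefSeq promoter windows of 300 bases, from 250 bases before to 50 after the start of transcription, were given for 31 of the 38 genes (build GRCm38.p6). The cell cycle homology region, CHR, an element of many G2/M promoters, was searched as TTTGAA and TTCGAA, the CCAAT box as CCAAT, and the E2F element as TTTCCCGC, TTTGGCGC, TTTCGCGC and TTTGCCGC, all on both strands. None of the octamers holds a CHR or CCAAT match. For 6 G2/M genes and 3 S genes, the 170 bases from 150 before to 20 after the start are printed 5′ to 3′ on the strand of the gene, with each match to any of the 3 elements in capitals. All of them are on the minus strand except Rrm2. They are Cdk1 (chr10:69352893-69353062), Mki67 (chr7:135716360-135716529), Top2a (chr11:99024170-99024339), Cdc20 (chr4:118437324-118437493), Bub1 (chr2:127831840-127832009), Ccnb2 (chr9:70421535-70421704), Mcm6 (chr1:128359686-128359855), Pcna (chr2:132253161-132253330) and Rrm2 (chr12:24708104-24708273).
Cdk1: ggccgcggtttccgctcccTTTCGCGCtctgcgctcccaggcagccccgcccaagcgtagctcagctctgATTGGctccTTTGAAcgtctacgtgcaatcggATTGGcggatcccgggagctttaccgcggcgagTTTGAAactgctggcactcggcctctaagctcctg
Mki67: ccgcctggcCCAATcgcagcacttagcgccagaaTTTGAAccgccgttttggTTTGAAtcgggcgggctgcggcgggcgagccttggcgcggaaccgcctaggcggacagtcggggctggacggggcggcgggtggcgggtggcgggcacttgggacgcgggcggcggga
Top2a: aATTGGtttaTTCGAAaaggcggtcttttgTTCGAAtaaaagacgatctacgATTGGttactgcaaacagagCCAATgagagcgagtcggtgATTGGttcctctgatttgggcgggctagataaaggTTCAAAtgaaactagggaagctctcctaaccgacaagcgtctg
Cdc20: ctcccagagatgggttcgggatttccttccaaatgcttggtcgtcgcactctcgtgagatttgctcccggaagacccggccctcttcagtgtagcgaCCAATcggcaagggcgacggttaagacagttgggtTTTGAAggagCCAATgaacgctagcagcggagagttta
Bub1: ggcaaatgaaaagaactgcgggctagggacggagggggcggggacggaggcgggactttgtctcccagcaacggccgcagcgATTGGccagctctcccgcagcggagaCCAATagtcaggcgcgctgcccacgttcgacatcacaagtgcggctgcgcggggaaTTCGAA
Ccnb2: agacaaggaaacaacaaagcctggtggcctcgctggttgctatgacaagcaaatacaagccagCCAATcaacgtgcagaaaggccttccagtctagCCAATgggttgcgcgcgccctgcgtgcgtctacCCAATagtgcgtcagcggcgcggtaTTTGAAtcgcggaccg
Mcm6: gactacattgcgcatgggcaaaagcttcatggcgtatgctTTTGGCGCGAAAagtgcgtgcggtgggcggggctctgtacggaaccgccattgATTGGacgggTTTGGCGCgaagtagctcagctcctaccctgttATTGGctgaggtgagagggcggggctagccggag
Pcna: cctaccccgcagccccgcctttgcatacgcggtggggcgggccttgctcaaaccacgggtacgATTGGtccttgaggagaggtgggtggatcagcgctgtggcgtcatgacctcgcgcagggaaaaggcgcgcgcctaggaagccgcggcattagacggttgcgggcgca
Rrm2: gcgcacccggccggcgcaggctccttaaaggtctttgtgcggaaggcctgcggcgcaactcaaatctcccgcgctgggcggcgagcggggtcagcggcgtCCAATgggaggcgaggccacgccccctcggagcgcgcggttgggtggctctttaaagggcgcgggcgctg

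A CHR match was found in 16 of 19 G2/M promoters (84.2%) and in 2 of 12 S promoters (16.7%), against 19.4% of all 27025 promoters of the same length. Counted by its first base, the Cdk1 promoter held CHR matches 71 and 15 bases before the start, and that of Cdc20 held 1 at 18 bases before it. The match of Bub1 lay after the start, at position 15, and Ccnb2 held 1 at position 5 and another 167 bases before the start, outside the printed bases. The G2/M promoters without a CHR match were those of Birc5, Nusap1 and Ccnb1, which are not printed. CHR and CCAAT matches occurred together in 14 of 19 G2/M promoters (73.7%), in 2 of 12 S promoters and in 7.70% of all promoters. A CCAAT match, with or without CHR, was found in 15 of 19 G2/M promoters, in 8 of 12 S promoters (66.7%) and in 37.9% of all promoters. CCAAT thus differed less between the 2 groups than CHR. An E2F octamer was found in 5 of 12 S promoters (41.7%), in 1 of 19 G2/M promoters (that of Cdk1) and in 2.32% of all promoters. Mcm6 held 3 of them, 2 of which overlap, whereas the windows of Pcna and Rrm2 held CCAAT only. These matches describe letters in a window: a match is not a bound site, and a window without one says nothing about the factor.

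The libraries held 9179 wildtype and 8811 knockout cells with 77638793 and 65118304 UMIs, and 8875 and 8617 cells passed the filters, with medians of 4941 and 4992 UMIs. The barcodes of 1211 droplets occurred in both libraries. Cells were clustered without the cell cycle genes of the lists used here and the histone genes among the variable features. Clusters were named from marker genes by a rule set after the clusters were seen. Basal, spinous, granular and the other names below thus stand for basal-like, spinous-like and granular-like cells and so on. Doublets were scored but not removed. Among the basal cells, 65 wildtype and 20 knockout cells were in a sub-cluster led by the interferon-response genes Iigp1, Gbp2 and Cxcl9. Keratinocytes made up 61.4% of the wildtype and 46.7% of the knockout cells, with 1822 and 1453 basal, 965 and 880 spinous, 378 and 223 granular, 900 and 568 infundibulum (upper follicle), 670 and 365 bulge or germ (lower follicle) and 711 and 539 unnamed cells. Fibroblasts numbered 1854 and 2794, and immune cells 1017 and 1248. Eppk1 itself was 3084 CPM (its UMIs per 1000000 UMIs of the type) in wildtype and 800 CPM in knockout keratinocytes, and 1209 and 73.8 CPM in basal cells, where the difference was -4.03 on the log2 scale.

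The G2/M genes were highest in the cells named basal, and this rested on 1 sub-cluster of them. Each of the 21 had its highest CPM in basal cells among the 5 named keratinocyte compartments, in both libraries. In each library, the interval of the log2 ratio of basal cells over spinous, granular and bulge or germ cells lay above 0 for 21 of 21 genes. Over infundibulum cells the interval lay above 0 for all 21 genes in wildtype, and for all but Aurka, a spindle kinase, in knockout. The share of all genes that were highest in basal cells, or had such intervals, was not computed. These counts therefore cannot be set against it. CPM are compared here between cell types for 1 gene at a time and never between genes, since the counts of a gene depend on its probes. The G2/M genes summed to 735 CPM in wildtype basal cells. The sum was 155 CPM in infundibulum, 66.3 in spinous, 59.4 in bulge or germ and 24.6 in granular cells. The knockout library kept basal cells first of the 5 named compartments, at 811 CPM, with infundibulum next at 143, then spinous at 87.9, bulge or germ at 83.9 and granular at 42.2. The unnamed keratinocytes lay between basal and infundibulum cells, at 204.5 CPM in wildtype and 286 CPM in knockout. In both libraries the intervals of spinous and bulge or germ cells overlapped, so these neighbours were not separated.

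The basal cells included a sub-cluster of 87 wildtype and 87 knockout cells (4.78% and 5.99% of them) led by the G2/M genes Ccna2, Cdk1 and Hmmr. It was named basal because 8 basal markers were raised in it. Its 10 leading genes held no basal marker, which was also true of each other basal sub-cluster. Without it, the G2/M genes summed to 142 CPM in wildtype basal cells, below the 155 CPM of infundibulum cells, and to 161 CPM in knockout basal cells, against 143. Both basal sums were then below those of the unnamed keratinocytes, at 204.5 and 286 CPM. Among the 5 named compartments, 6 of the 21 genes were then highest in basal cells in wildtype, 9 in knockout and 5 in both. The 5 included Mki67 at 30.4 and 27.2 CPM and Anln, which encodes the cytokinesis protein anillin, at 21.9 and 26.5 CPM. The sub-cluster held 70 wildtype and 76 knockout cells with a UMI of at least 4 G2/M genes. Leaving it out took such cells from the basal group only, so a lower basal sum followed from that choice. Infundibulum cells kept their 6 and 2 such cells, and the unnamed keratinocytes their 10 and 14. The compartment order below therefore depends on where the cells of this sub-cluster are placed.

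Mki67, whose protein coats chromosomes in mitosis, was 128 CPM in wildtype basal cells, 20.6 in infundibulum, 7.48 in bulge or germ, 5.53 in spinous and 2.52 in granular cells. In the knockout library it was 148, 19.9, 10.4, 8.70 and 4.83 CPM in the same order. A UMI of Mki67 was found in 7.69% of wildtype basal cells after each cell had been thinned to 2000 UMIs, and in 10.2% without thinning. Granular cells, which no longer divide, gave the background: 0 of 377 thinned wildtype cells, which allows a share of up to 0.796%, and 0.448% of the knockout cells. Their median depth of 23090 UMIs was far above the 4288 UMIs of basal cells, and unthinned they showed Mki67 in 4.50% of wildtype cells. In knockout basal cells Mki67 was found in 8.77% of thinned cells and 11.6% unthinned. Top2a, the topoisomerase that untangles sister chromatids, was likewise highest in basal cells, with 102 CPM in wildtype basal, 20.9 in infundibulum and 4.17 in granular cells. Cdk1 was 33.8 CPM in basal cells and 0.307 CPM in spinous cells, where 2 UMIs were counted in 965 wildtype cells. Ccna2, the cyclin of S phase and early mitosis, was 35.8 CPM in basal and 0.767 in spinous cells. Cdc20, the activator that directs the anaphase-promoting complex, reached further into the upper layers than these 4 genes. It was 58.3 CPM in wildtype basal cells, and still 29.9 CPM in infundibulum, 22.9 in spinous and 7.24 in granular cells.

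**Figure D1:**
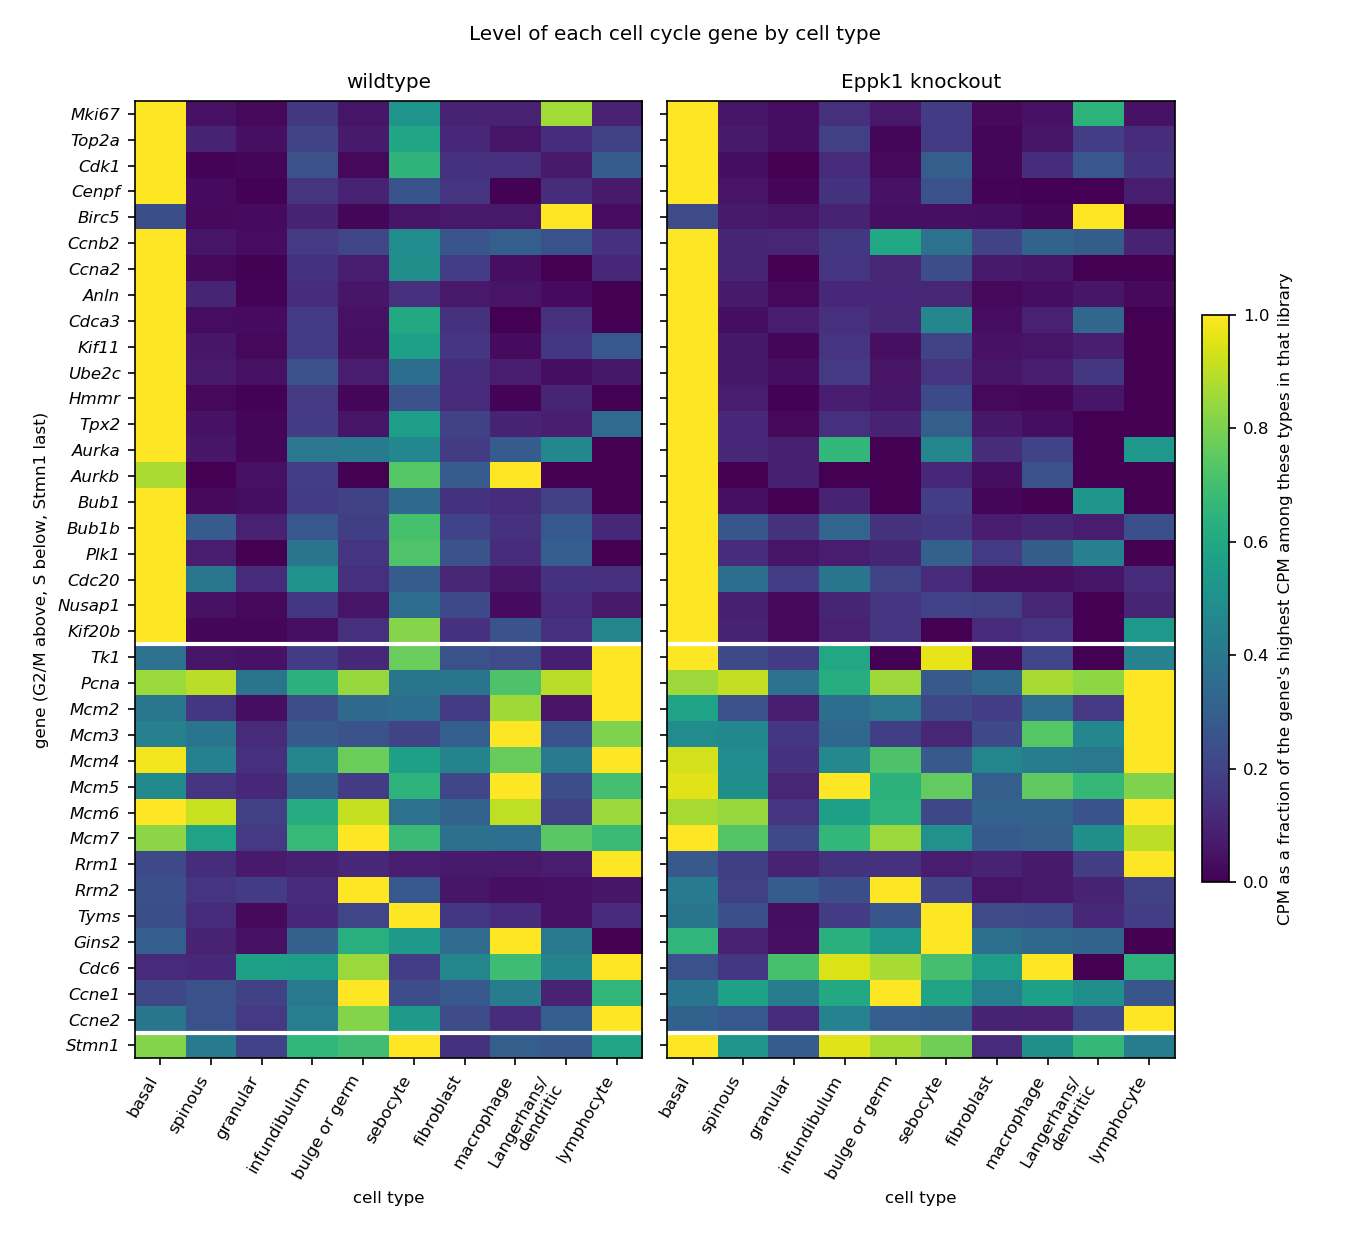
CPM of each of the 37 genes (rows, with G2/M genes on top, then S genes, then Stmn1) in 10 cell types (columns) of the wildtype and the Eppk1 knockout library, coloured from 0 to 1 as a share of the highest CPM of that gene among these types in that library. G2/M genes are brightest in the basal column, where Mki67 was 128 and 148 CPM, except Birc5 in both libraries and Aurkb in wildtype, while S genes are bright in several columns.

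The S genes were spread over more compartments. Their sum was 792 CPM in wildtype basal cells, 883 in bulge or germ, 692 in spinous, 542 in infundibulum and 302 in granular cells. In knockout it was 847, 820, 759, 592 and 322 CPM in the same order, and the intervals of basal and bulge or germ cells overlapped. The unnamed keratinocytes were at 717 CPM in wildtype and 894 CPM in knockout. Pcna, the sliding clamp of DNA polymerases that also serves DNA repair, made up much of these sums: it was 425 CPM in basal cells and was highest in spinous cells in both libraries, at 450 and 484 CPM. Without Pcna the S genes summed to 367 CPM in basal, 458 in bulge or germ, 242 in spinous, 221 in infundibulum and 110 in granular wildtype cells. In knockout, basal cells were at 392 CPM and bulge or germ cells at 366 CPM, with overlapping intervals, so the wildtype order of these 2 was not repeated. Of the 15 S genes, 7 were highest in basal cells in both libraries: Tk1, Mcm2, Mcm3, Mcm4, Mcm6, Rrm1 and Tyms. Of these, only Rrm1 had an interval apart from that of the next compartment, and it did so in both libraries. Rrm2 and Ccne1 were highest in bulge or germ cells in both, and for 5 genes (Mcm5, Mcm7, Gins2, Cdc6 and Ccne2) the highest compartment differed between the libraries. The interval of the log2 ratio of basal over bulge or germ cells lay above 0 in both libraries for 3 S genes and below 0 in both for 3, and neither held for the other 9. For these counts, too, no share of all genes was computed. Without the sub-cluster led by Ccna2, which again was taken from basal cells only, just Mcm4, Mcm6 and Rrm1 were still highest in basal cells in both libraries. The S sum of basal cells was then 730 and 804 CPM, against 883 and 820 in bulge or germ cells.

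Mcm6, a subunit of the replicative helicase, was 78.9 CPM in wildtype basal, 72.1 in spinous, 72.0 in bulge or germ, 48.9 in infundibulum and 14.8 in granular cells. The first 3 of these intervals overlapped. Rrm2, the small subunit of ribonucleotide reductase, which makes deoxynucleotides, was 159 CPM in bulge or germ cells and 39.0 in basal cells of the wildtype library. In the knockout library it was 114 and 46.5 CPM. A UMI of Rrm2 was found in 20.6% of thinned wildtype bulge or germ cells (27.5% unthinned) and in 6.24% of basal cells. Granular cells showed it in 5.04% at the same thinned depth, so the share in basal cells was close to theirs. Ccne1, a cyclin E gene, was 24.0 and 18.6 CPM in bulge or germ cells and 5.19 and 7.22 in basal cells. Its paralog Ccne2 was 19.3 CPM in wildtype bulge or germ cells and 9.17 in basal cells. Tyms, which makes thymidylate, was 11.8 CPM in wildtype basal and 1.21 in granular cells. Cdc6, a factor that loads the helicase, had 8 and 12 UMIs in basal cells and was too low to place. Stmn1 was highest in basal cells, at 192 and 229 CPM, with 164 and 198 in bulge or germ, 157 and 217 in infundibulum, 97.6 and 121 in spinous and 47.1 and 66.6 in granular cells. Basal and infundibulum cells were not separated for Stmn1.

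Outside the keratinocytes, the G2/M genes summed to 101 CPM in wildtype and 37.5 in knockout fibroblasts, and to 64.4 and 55.1 in macrophages. Sebocytes were higher, at 333 and 159 CPM from 150 and 132 cells. Langerhans or dendritic cells reached 236 and 225 CPM, but 2 genes made up most of this: Mki67 was 110 and 95.5 CPM, and Birc5, which encodes survivin of the chromosomal passenger complex, was 57.4 and 52.4 CPM, above its 13.9 and 12.2 CPM in basal cells. Aurkb, the kinase of that complex, and Ccna2 had no UMI in these cells. After thinning, 17 of 140 wildtype Langerhans or dendritic cells had a UMI of Mki67 (12.1%, and 27.4% unthinned, at a median of 5024 UMIs), and 12 of these had no other G2/M gene. In the knockout library there were 10 of 105 such cells, 7 of them with no other G2/M gene. In basal cells only 30 of 122 wildtype and 19 of 108 knockout cells with Mki67 lacked another G2/M gene. The S genes were highest in lymphocytes, at 1207 and 1169 CPM. Rrm1, the large subunit of ribonucleotide reductase, gave 398 and 298 CPM of that and Pcna 501 and 532 CPM, while their G2/M sum was 88.8 and 59.7 CPM.

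G2/M transcripts were held by few cells. Cells with a UMI of at least 4 of the 21 G2/M genes, after thinning to 2000 UMIs, were 104 of 4876 wildtype keratinocytes (2.13%, 95% Clopper-Pearson interval 1.75 to 2.58%) and 107 of 3526 knockout keratinocytes (3.03%, 2.49 to 3.65%). They held 69.9% and 67.5% of the G2/M UMIs counted at full depth over all keratinocytes. This class is a range and not a cell type: 22 and 19 keratinocytes had 3 of the genes and 13 and 17 had exactly 4, while the highest numbers were 18 and 17. Of the 104 and 107 cells, 86 and 88 were basal, which is 5.42% (4.36 to 6.65%) of 1587 wildtype and 7.15% (5.77 to 8.73%) of 1231 knockout basal cells. In spinous cells there were 1 of 916 and 3 of 841, and in granular cells 0 of 377 and 0 of 223, which allows shares of up to 0.796% and 1.35%. In infundibulum cells there were 6 of 819 and 2 of 509, and in bulge or germ cells 1 of 545 and 0 of 282, the latter allowing up to 1.06%. Of the unnamed keratinocytes, 10 of 632 and 14 of 440 were in the class. The unnamed keratinocytes included a sub-cluster of 37 wildtype and 50 knockout cells led by the collagen genes Col1a2 and Col1a1. It held 0 of the 10 and 5 of the 14 cells. In the basal layer these cells had more UMIs than the rest before thinning, with medians of 7136 against 4560 in wildtype and 6604 against 4395 in knockout. Scrublet marked none of them as a doublet, but it marked only 0.60% of the other wildtype and 0% of the other knockout basal cells. Cells with at least 4 of the 15 S genes were spread more widely: 37 of 1587 wildtype basal cells (2.33%) and 36 of 1231 knockout basal cells (2.92%), against 78 and 91 over all keratinocytes, and 15 of 632 (2.37%) and 26 of 440 (5.91%) unnamed keratinocytes. Of the cells with at least 4 G2/M genes, 70 and 76 fell into 1 keratinocyte sub-cluster, whose 87 and 87 cells were led by Ccna2, Cdk1 and Hmmr. The listed cell cycle genes were left out of the variable features. Other genes that went with the G2/M genes, such as Kif18b and Kifc1, were not barred from them. An alternative clustering, with values below, also left out the genes correlated with cell cycle genes. Whether these cells still fell into 1 sub-cluster in it was not examined.

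**Figure D2:**
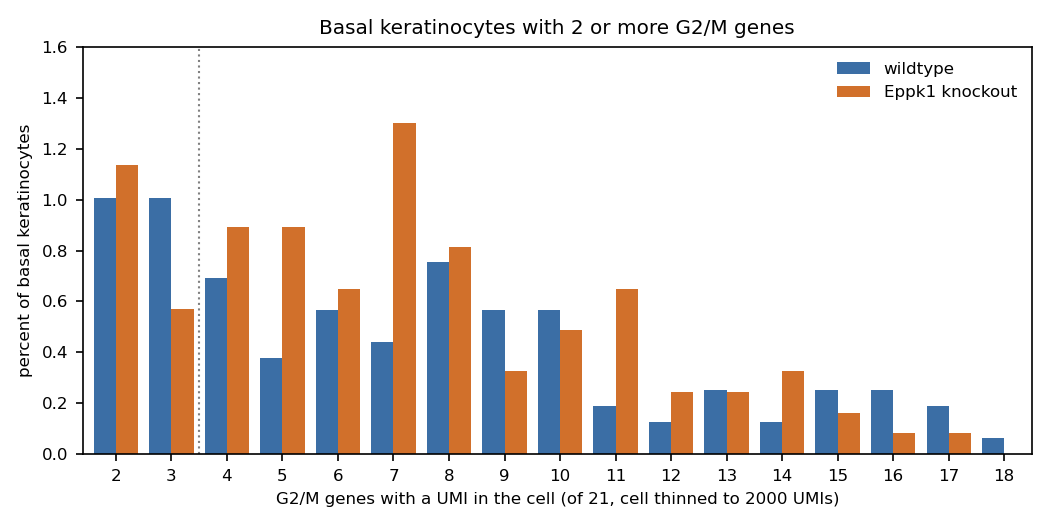
Percent of basal keratinocytes (vertical axis) by the number of G2/M genes with a UMI in the cell (horizontal axis, 2 genes or more, cells thinned to 2000 UMIs) in the wildtype and the Eppk1 knockout library, with a dotted line where at least 4 genes begin. Cells extend to 18 and 17 genes, with 16 and 7 cells at 3 genes and 11 and 11 at exactly 4.

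Genes differed in how strictly they were kept to such cells. To avoid counting a gene toward its own class, each gene was asked what share of its thinned keratinocyte UMIs lay in cells with at least 4 other G2/M genes. Ccna2 had 90.9% in wildtype and 89.7% in knockout, Cdk1 86.2% and 87.7%, and Plk1, the polo-like kinase of mitotic entry, 81.5% and 78.6%. Mki67 had 66.9% and 71.7%, and Top2a 72.5% and 71.5%. Cdc20 was the lowest G2/M gene in both libraries, at 34.2% and 30.0%, and it was detected in 4.02% and 5.70% of the keratinocytes outside these cells. Among the S genes, Tk1, the thymidine kinase, was the most concentrated at 51.6% and 50%, followed at a distance by Mcm5 (23.3% and 14.5%) and Tyms (19.2% and 23.8%). Pcna had 2.82% and 3.14%, Mcm6 4.32% and 5.01% and Ccne1 1.0% and 3.41%, close to the 2.13% and 3.03% of cells that were in the class. Stmn1 had 20.4% and 23.4%. Plk1 had only 27 and 14 thinned UMIs, so its shares are loose.

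**Figure D3:**
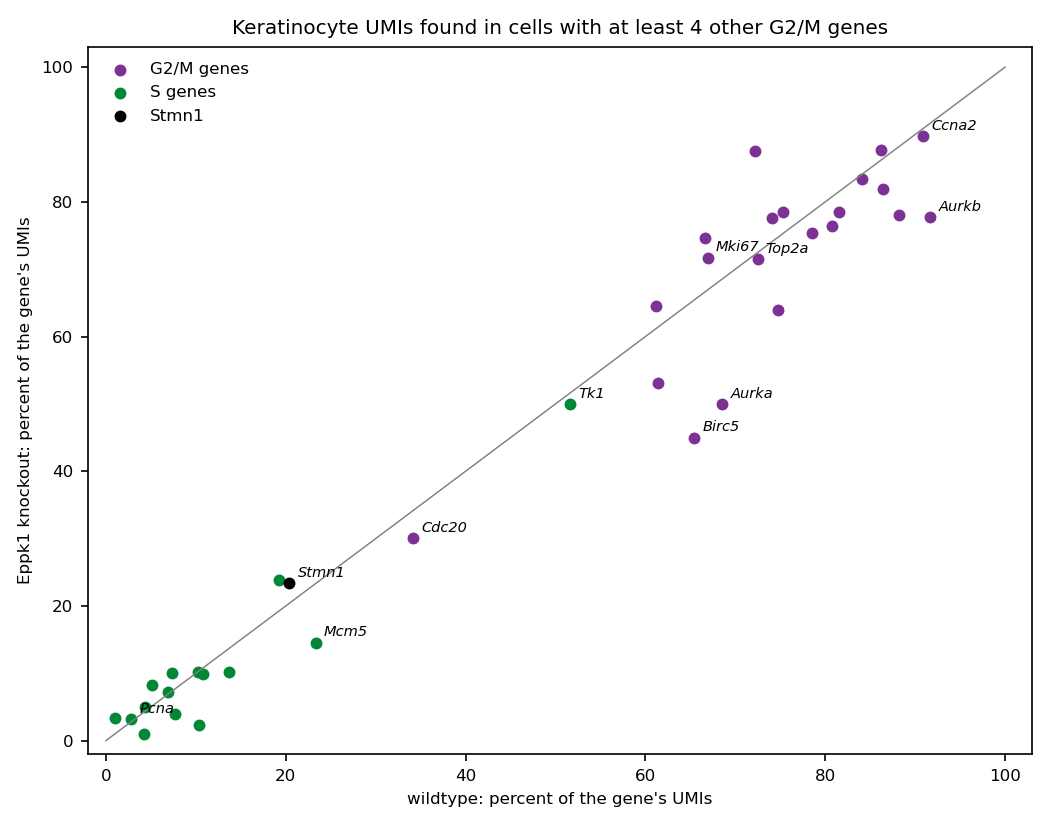
For each gene, the percent of its keratinocyte UMIs that lay in cells with at least 4 other G2/M genes, in the wildtype library (horizontal axis) against the Eppk1 knockout library (vertical axis), with G2/M genes, S genes and Stmn1 in separate colours and a line of equal values. Ccna2 sits at 90.9% and 89.7%, Cdc20 at 34.2% and 30.0%, and Pcna at 2.82% and 3.14%.

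Basal cells were then split into 4 classes by whether they had at least 4 S genes, at least 4 G2/M genes, both or neither. There were 18, 67, 19 and 1483 such cells in the wildtype and 18, 70, 18 and 1125 in the knockout library. The values below are of genes that were not used for the split. The 36 replication histone genes, whose mRNA is made in S phase, summed to 11700 and 8484 CPM in cells with both, to 2867 and 2349 in cells with G2/M genes only, to 1500 and 1026 in cells with S genes only and to 540 and 479 in cells with neither. A list of 59 other mitosis genes was high in both G2/M classes, at 10110 and 8068 CPM in cells with both, 9502 and 7614 with G2/M genes only, and 892 and 898 with S genes only. A list of 58 other replication genes was highest in cells with both, at 7322 and 5795 CPM, against 2241 and 1606 with G2/M genes only and 1642 and 1842 with S genes only. Stmn1 was 1598 and 1674 CPM in cells with both and 90.3 and 102 CPM in cells with neither. Among the regulators, Ccnd1, the G1 cyclin D1, ran the other way, at 182 and 169 CPM in cells with neither and 48.2 and 87.7 in cells with G2/M genes only. Cdk6, its kinase partner, was 96.1 and 107 CPM against 29.3 and 29.2. Cdkn1b, the inhibitor p27, was higher in the G2/M classes, at 191 and 215 CPM with G2/M genes only and 78.1 and 83.9 with neither, and so was Cdkn2c, the inhibitor p18, at 75.4 and 37.6 against 4.95 and 5.88 CPM. The list of 12 inhibitors and pocket proteins did not rise as a whole, at 3213 and 3504 against 3427 and 3483 CPM. Btg1 of that list was lower, at 1076 and 1280 against 1661 and 1860 CPM. Cells with S genes only, 18 in each library, lay between cells with neither and cells with both for the histones and for Stmn1, which was 385 and 245 CPM in them.

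In keratinocytes as a whole the G2/M genes summed to 238 CPM (233 to 244) in wildtype and 293 CPM (286 to 299.6) in knockout, a log2 ratio of 0.30 (0.25 to 0.34), where 0.5 UMI was added to each sum and a positive ratio is higher in knockout. In such sums, more cells with these transcripts and more of them per cell cannot be told apart. The S genes summed to 608 and 684 CPM, a ratio of 0.17 (0.14 to 0.20). A gene was called past the size when its ratio was at least 0.5 in either direction and it had at least 50 UMIs over both libraries. In keratinocytes 2 of 37 genes were higher by this rule and 0 were lower, against 3.73% of 11728 genes higher and 4.37% lower. Of the 37, 32 had a ratio above 0, with a median of 0.28 beside -0.01 over all genes. By group, 16 of 21 G2/M genes were above 0, with a median of 0.22, and 15 of 15 S genes, with a median of 0.28. Without the cells with at least 4 G2/M genes, the G2/M ratio was 0.42 and 10 genes instead of 2 were higher by the size. The share of all genes past the size was not computed for the cells left, so this count cannot be set against it. Markers of other cells also differed: in keratinocytes the 8 fibroblast markers summed to 452 CPM in wildtype and 677 CPM in knockout (0.58). In basal cells they were 220 and 295 CPM (0.42), and the 8 spinous markers 4988 and 6999 CPM (0.49), although 4 of those 8 were lower in knockout. None of these markers was at 0. The keratinocytes, though not the basal cells, included the sub-cluster led by Col1a2 and Col1a1, with 37 and 50 cells. The part of these markers and cells in the result was not tested.

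The 2 genes past the size were Cdc20, at 28.1 CPM in wildtype and 41.3 in knockout keratinocytes (0.55, 0.42 to 0.68), and Bub1, a kinase of the spindle checkpoint, at 1.91 and 2.73 CPM (0.51, 0.0 to 1.02). Cdc20 was found in 5.07% of thinned wildtype and 7.09% of thinned knockout keratinocytes. The checkpoint partner Bub1b was 6.64 and 9.34 CPM (0.49), the helicase subunit Mcm2 9.67 and 13.4 CPM (0.47) and the spindle motor Kif11 8.97 and 12.3 CPM (0.45). Mki67 was 38.7 and 50.3 CPM (0.38), Top2a 33.9 and 41.5 (0.29), and Cdk1 10.0 and 10.9 (0.12, -0.11 to 0.35). At the lower end Aurka was 2.81 and 2.11 CPM (-0.41, -0.93 to 0.09), followed by Plk1 (-0.18), Ccna2 (-0.08), Ube2c (-0.07) and Cdca3 (-0.04), with intervals that all included 0. Among the S genes Pcna was 353 and 394 CPM (0.16), Mcm6 53.3 and 58.3 (0.13), Rrm2 38.5 and 40.0 (0.05), Tyms 6.69 and 6.82 (0.03), Ccne1 7.93 and 10.5 (0.41) and Ccne2 9.90 and 12.0 (0.28). Stmn1 was 131 and 169 CPM (0.37, 0.31 to 0.43). The make-up of the keratinocytes differed between the libraries, and with the compartments weighted by their wildtype shares of UMIs the G2/M ratio was 0.19 and the S ratio 0.12.

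Within basal cells, where most of these transcripts were, the G2/M ratio was 0.14 (0.09 to 0.20) and the S ratio 0.10 (0.04 to 0.15). Of 36 genes with at least 50 UMIs, 3 were higher by 0.5 or more and 1 was lower, against 3.68% and 3.97% of 9235 genes, and the median was 0.12 beside 0.01 over all genes. Cdc20 was 58.3 CPM (53.2 to 63.7) in wildtype and 83.3 CPM (76.3 to 90.8) in knockout basal cells, a ratio of 0.51 (0.33 to 0.70). It was the one gene past the size in basal cells whose interval lay above 0, and it was found in 7.06% and 10.7% of thinned cells (12.0% and 16.9% unthinned). Thinned granular cells, which gave the background for Mki67, showed Cdc20 in 1.33% and 4.48%, so this background was also higher in knockout. Gins2, a subunit of the replicative helicase complex, was 4.34 and 6.42 CPM (0.56, -0.12 to 1.25) and Bub1 6.15 and 8.82 CPM (0.52, -0.06 to 1.10). Aurka was lower, at 7.60 and 4.65 CPM (-0.69, -1.40 to -0.05). Ccna2, at 35.8 and 27.3 CPM (-0.39, -0.67 to -0.12), and Cdca3, an adaptor for the degradation of a mitotic inhibitor, at 35.1 and 27.9 CPM (-0.33, -0.61 to -0.05), also had intervals below 0. Such intervals treat each UMI as independent. Of the basal G2/M UMIs, however, 82.8% and 82.5% lay in the 86 and 88 cells with at least 4 G2/M genes. Which cells were sampled is therefore not covered, and the intervals are too narrow for it. Mki67 was 128 and 148 CPM (0.21), Top2a 102 and 118 (0.22), Cdk1 33.8 and 34.0 (0.01), Plk1 7.84 and 7.06 (-0.15), Pcna 425 and 455 (0.10) and Stmn1 192 and 229 (0.25). Further S genes had ratios from -0.13 to 0.48. Mcm2 was 17.0 and 21.7 CPM (0.35), Mcm6 78.9 and 78.0 (-0.02), Mcm7 42.8 and 52.5 (0.29) and Rrm1 88.1 and 83.0 (-0.09). Rrm2 was 39.0 and 46.5 CPM (0.26), Tyms 11.8 and 10.8 (-0.13), Ccne1 5.19 and 7.22 (0.48) and Ccne2 9.17 and 10.8 (0.23). The remaining G2/M genes (Cenpf, Ccnb2, Birc5, Ube2c, Hmmr, Tpx2, Aurkb, Bub1b, Nusap1 and Kif20b) had ratios from -0.23 for Nusap1 to 0.27 for Bub1b, and the remaining S genes (Tk1, Mcm3, Mcm4 and Mcm5) from -0.09 to 0.12, with intervals that all included 0. Anln was 82.5 and 102 CPM (0.31) and Kif11 28.7 and 36.9 CPM (0.36), both short of the size.

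The Cdc20 difference in basal cells was not limited to the sub-cluster led by Ccna2. Without that sub-cluster, the basal ratio was 0.66 (0.36 to 0.96) for Cdc20 and 0.18 (0.05 to 0.31) for the G2/M sum. In keratinocytes with at least 4 other G2/M genes, Cdc20 was found in 54.5% of wildtype and 52.9% of knockout cells. Outside them it was found in 4.02% and 5.70%. Whether its difference goes with division was not tested. Cdc20 was also higher in the upper layers of the knockout, at 30.0 CPM against 22.9 in spinous (0.39, 0.07 to 0.72) and 15.3 against 7.24 in granular cells (1.08, 0.58 to 1.58). In bulge or germ cells it had only 20 and 23 UMIs, and in infundibulum cells it was 29.9 and 32.5 CPM (0.12, -0.24 to 0.47). The G2/M sum followed, with ratios of 0.41 in spinous and 0.78 in granular cells, from 432 and 495 and from 224 and 210 UMIs, and -0.11 (-0.27 to 0.05) in infundibulum cells. In bulge or germ cells it was 59.4 and 83.9 CPM (0.50, 0.13 to 0.86), from 151 and 113 UMIs. In the unnamed keratinocytes the G2/M ratio was 0.49 (0.33 to 0.64) and the S ratio 0.32 (0.23 to 0.40). In infundibulum cells Cdk1 was 8.33 CPM in wildtype and 4.20 in knockout (-0.96, -1.93 to -0.12). In bulge or germ cells the S genes without Pcna were lower in knockout, at 458 and 366 CPM (-0.32, -0.48 to -0.17), and Rrm2 alone was 159 and 114 CPM (-0.48, -0.76 to -0.21).

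**Figure D4:**
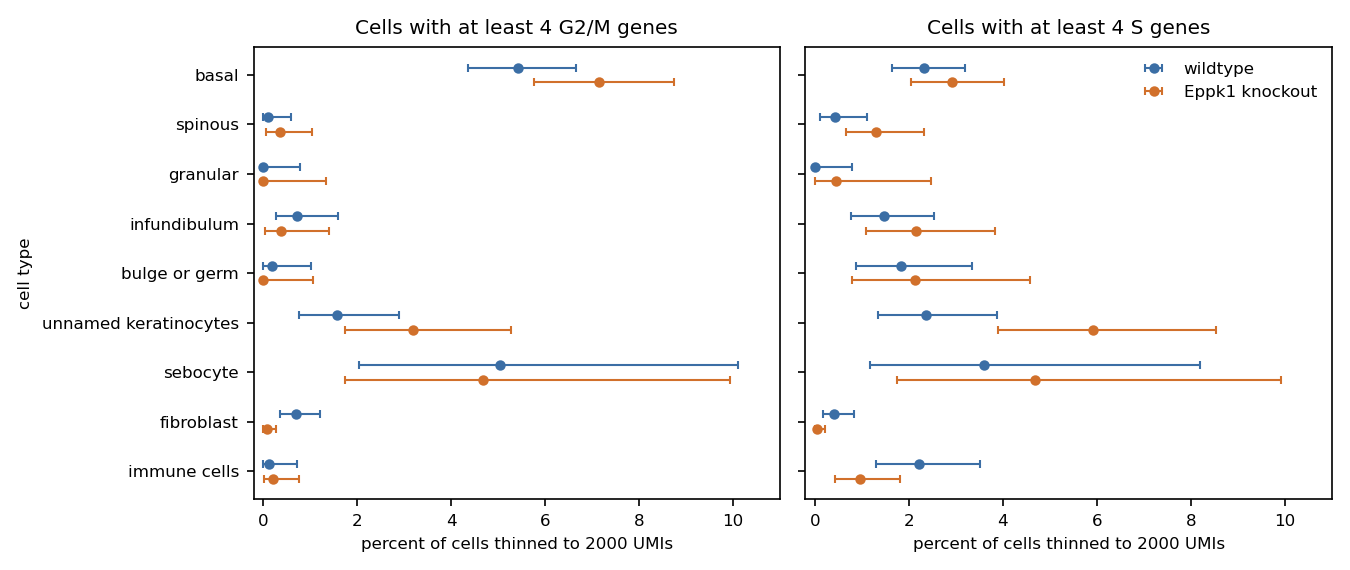
Percent of cells thinned to 2000 UMIs (horizontal axis) with at least 4 G2/M genes or at least 4 S genes, by cell type and genotype, with 95% Clopper-Pearson intervals. Basal cells are at 5.42% and 7.15% for G2/M genes, sebocytes at 5.04% and 4.69%, and fibroblasts at 0.701% and 0.0770%.

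Fibroblasts showed the widest difference between the libraries. The G2/M genes summed to 101 CPM (96.1 to 106) in wildtype and 37.5 CPM (34.8 to 40.5) in knockout fibroblasts, a log2 ratio of -1.43 (-1.56 to -1.30). With the cell cycle genes kept in the clustering, the ratio was -0.72 (-0.86 to -0.59). Of 32 genes with at least 50 UMIs, 0 were higher by 0.5 or more and 17 were lower, among them 14 of 16 G2/M genes, against 8.39% and 7.67% of 11840 genes. The median was -0.65 beside 0.05 over all genes. Tk1 was 3.40 and 0.164 CPM (49 and 3 UMIs, -4.17), Cenpf, a kinetochore protein, 4.10 and 0.273 (-3.78), Cdk1 4.87 and 0.601 (-2.96), Top2a 11.1 and 1.75 (-2.65), Cdca3 5.0 and 0.874 (-2.48), Mki67 12.9 and 3.99 (-1.69) and Ccna2 6.46 and 2.02 (-1.67). Cdc20 (6.18 and 3.44 CPM, -0.84), Plk1 (2.02 and 1.20, -0.74) and Ccnb2 (7.37 and 5.36, -0.46) differed less. The S genes summed to 348 and 327 CPM (-0.09, -0.14 to -0.03), and Pcna, at 194 and 184 CPM, made up more of this than any other. Of the 15 S genes, 10 had a ratio below 0, with a median of -0.31, and 3 were lower by the size and 0 higher. The others included Mcm6 at 25.1 and 28.3 CPM, Mcm2 at 7.51 and 6.83, Rrm2 at 8.76 and 6.67, Tyms at 7.85 and 6.34, and Ccne1, the highest ratio of all, at 6.60 and 8.03 (0.28). Ccne2 was 5.42 and 3.28 CPM (-0.72) and Stmn1 34.7 and 28.2 CPM (-0.30).

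This fibroblast difference rested on few cells. In wildtype, 12 of 1711 thinned fibroblasts (0.701%, 0.363 to 1.22%) had at least 4 G2/M genes, and in knockout 2 of 2597 (0.0770%, 0.00933 to 0.278%). These 12 cells held 75.1% of the wildtype G2/M UMIs of fibroblasts, up to 198 in 1 cell. Outside them the sum was 25.6 CPM in wildtype and 29.8 in knockout, a ratio of 0.22, so the direction turned when they were left out. The share of thinned fibroblasts with any G2/M gene was likewise 5.20% and 5.04%. Of the 12 cells, 5 were marked as doublets by the Scrublet score, against 7.30% of the other wildtype fibroblasts, and their median was 16050 UMIs against 7274. The 14 keratinocyte markers summed to 10910 CPM in them, with 1 marker at 0, and to 2429 CPM in wildtype fibroblasts with no G2/M gene, where none was at 0. The 8 fibroblast markers summed to 41260 and 84590 CPM, with none at 0. Over all fibroblasts the keratinocyte markers were 2553 CPM in wildtype and 1927 CPM in knockout, with none at 0 in either. With all marked doublets removed the G2/M ratio was -1.34 (-1.49 to -1.19), close to the value with them. The difference was of the same sign in each of the 4 fibroblast clusters, from -0.63 to -2.51, and 10 of the 12 cells were in 2 of them.

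**Figure D5:**
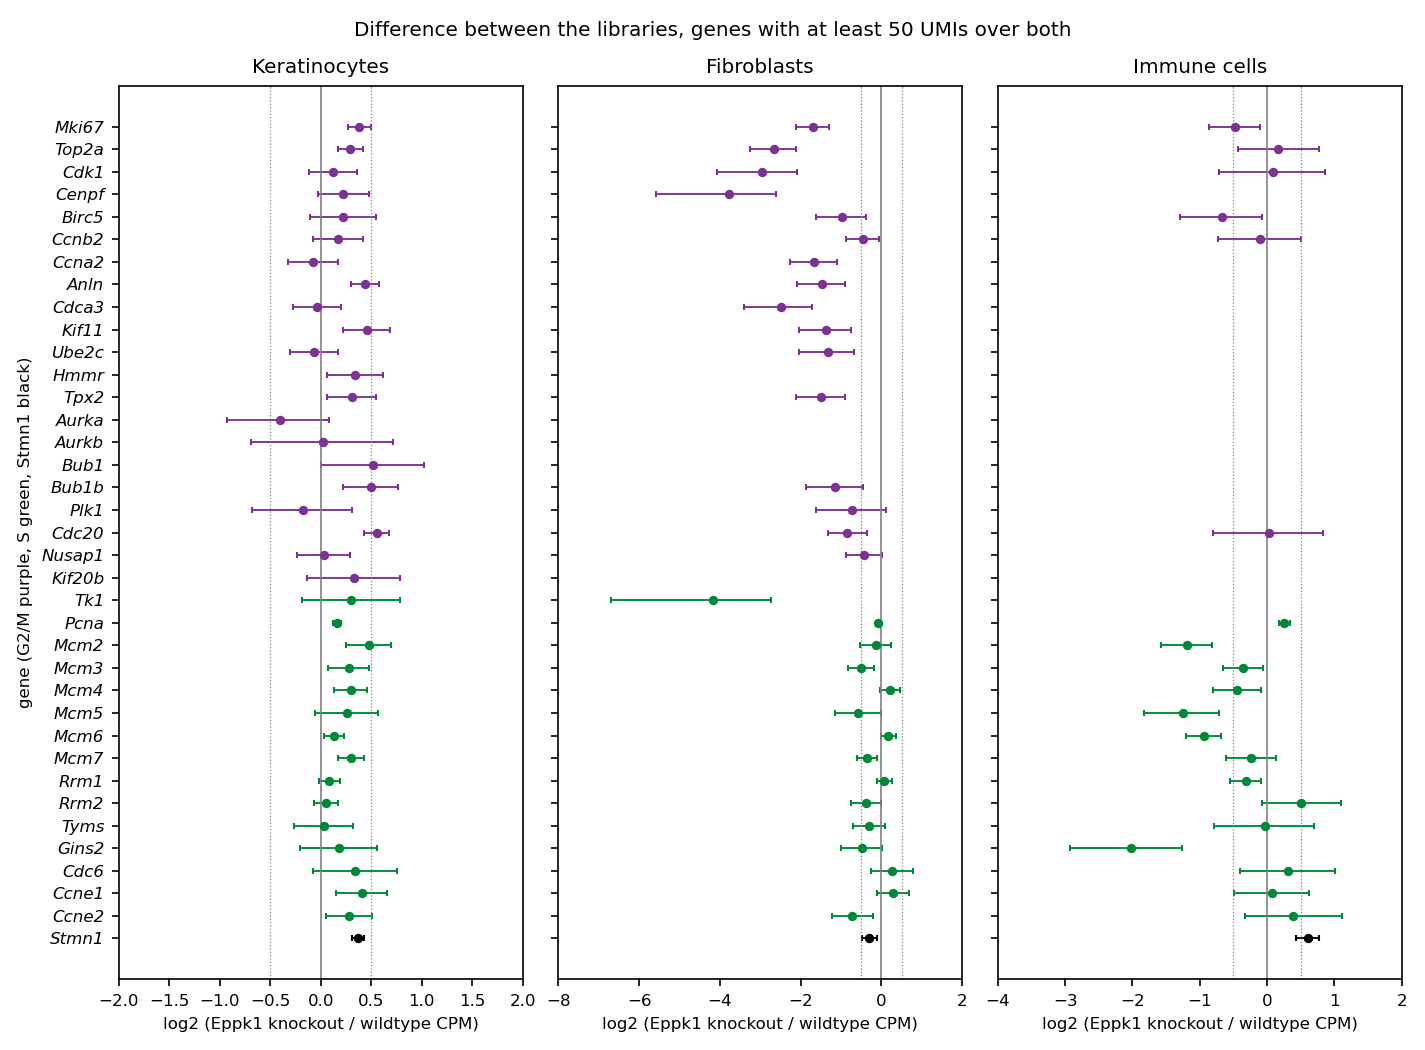
Log2 ratio of CPM, Eppk1 knockout over wildtype, for each gene with at least 50 UMIs over both libraries, in keratinocytes, fibroblasts and immune cells (panels with different horizontal ranges), with 95% intervals for counting error and dotted lines at the size of 0.5. G2/M genes of fibroblasts lie to the left of 0, down to -3.78 for Cenpf, while the genes of keratinocytes lie between -0.41 and 0.55.

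Sebocytes, the lipid-making cells of the sebaceous gland, also had lower values in knockout. Their G2/M sum was 333 and 159 CPM (-1.07, -1.28 to -0.85), and 8 of 12 genes with at least 50 UMIs were lower and 0 higher, against 23.4% and 6.51% of 7065 genes. The share of cells with at least 4 G2/M genes was nonetheless 7 of 139 (5.04%, 2.05 to 10.1%) and 6 of 128 (4.69%, 1.74 to 9.92%). Median depth was 6186 UMIs in wildtype and 12760 in knockout sebocytes, and the G2/M sum outside the cells of the class was 65.6 and 62.1 CPM. In the cells of the class, the 10 sebocyte markers summed to 3069 and 2281 CPM with 3 and 3 at 0, and in cells with no G2/M gene to 37550 and 43480 CPM with none at 0. The cells of the class thus had low levels of sebocyte markers in both libraries.

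The immune cells here are the named types only. The unnamed cluster led by Ighm and Lyz1 was not among them, although macrophage was its closest name. Its G2/M sum was 552 CPM in wildtype and 310 CPM in knockout, from 192 and 242 cells. In immune cells the G2/M sum was 88.6 and 75.7 CPM (-0.23, -0.41 to -0.04), and the S sum 696 and 679 CPM (-0.04, -0.10 to 0.03). The S sum hid an opposition: Pcna was 392 and 468 CPM (0.26, 0.18 to 0.34), whereas the other 14 S genes summed to 304 and 210 CPM (-0.53, -0.64 to -0.43). Of 21 genes with at least 50 UMIs, 2 were higher and 5 lower by 0.5 or more, against 6.35% and 12.1% of 10517 genes. The lower genes were Gins2 (12.1 and 2.89 CPM, -2.02), Mcm5 (16.8 and 7.05, -1.25), Mcm2 (32.6 and 14.3, -1.19), Mcm6 (62.3 and 32.5, -0.93) and Birc5 (10.7 and 6.69, -0.66). The higher ones were Stmn1 (79.6 and 121, 0.60) and Rrm2 (7.11 and 10.1, 0.51). Mki67 was 24.4 and 17.5 CPM (-0.47), Top2a 7.73 and 8.68 (0.17), Cdk1 4.79 and 5.06 (0.08) and Cdc20 4.64 and 4.70 (0.02). Tyms was 5.56 and 5.42 CPM, Ccne1 9.27 and 9.76 and Ccne2 5.10 and 6.69, with intervals of the ratio that all included 0, and Plk1 and Ccna2 had fewer than 50 UMIs over both libraries.

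Macrophages made up most of the immune cells, and in them 7 of 17 genes were lower and 1 higher, against 16.4% and 7.76% of 9639 genes. Mcm2 was 37.2 and 13.3 CPM (-1.48, -1.94 to -1.05), Mcm5 19.7 and 6.98 (-1.48), Mcm6 71.4 and 28.2 (-1.34) and Gins2 14.5 and 3.26 (-2.11), all parts of the helicase, while Mcm7, a subunit of the same ring, was 18.9 and 15.8 (-0.25, -0.73 to 0.21). Macrophages with at least 4 S genes were 12 of 500 (2.40%, 1.25 to 4.15%) and 3 of 719 (0.417%, 0.0861 to 1.21%), and none of them had 4 G2/M genes. Median depth was 7250 UMIs in wildtype and 4823 in knockout macrophages. The difference in S genes without Pcna was found in both macrophage clusters but was larger in one. In the cluster led by Fcna, Padi4 and Slfn4 (243 and 227 cells), S genes without Pcna were 335 and 124 CPM (-1.43, -1.68 to -1.19). In the cluster led by Stab1, Cd209b and Ccl8 (351 and 641 cells), they were 235 and 194 CPM (-0.27, -0.45 to -0.10). The second cluster made up 59.1% of wildtype and 73.9% of knockout macrophages. The list of other replication genes was 1162 and 886 CPM (-0.39, -0.49 to -0.30) in the first cluster. In the second it was 1041 and 1020 CPM (-0.03, -0.11 to 0.05), with an interval that included 0. The G2/M sum was 73.4 and 36.6 CPM (-0.99, -1.48 to -0.55) in the first and 51.4 and 63.55 CPM (0.30, -0.05 to 0.67) in the second.

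The other cell cycle lists were read by the same size. Of 59 other mitosis genes with at least 50 UMIs in keratinocytes, 3 were higher (Pbk, 0.62, Kif23, 0.57, and Knl1, 0.56) and 1 was lower (Pimreg, -1.25), with a median of 0.15. This count and that of the replication genes were near the 3.73% higher and 4.37% lower of all genes in keratinocytes. Of 55 other replication genes, 2 were higher (Dtl, 0.78, and Timeless, 0.51) and 0 lower, with a median of 0.12. Of 15 G1 cyclins, kinases and E2F factors, E2f2 was higher (0.58) and none lower, and of 11 inhibitors and pocket proteins none passed the size in either direction, the lowest being Btg2 at 599 and 465 CPM (-0.37). In basal cells 5 of 47 replication genes were higher, led by the polymerase subunit Pole (1.0) and the chromatin remodeller Hells (0.65), and 2 were lower, led by Cdca7 (-0.67), the partner of Hells, against 3.68% and 3.97% of all genes in basal cells. In fibroblasts 15 of 32 other mitosis genes were lower and 0 higher, with Spc25, a kinetochore protein, at -2.61, and 4 of 47 replication genes were higher and 5 lower, against 8.39% higher and 7.67% lower of all genes in fibroblasts. Among the fibroblast inhibitors Cdkn1c, which encodes p57, was 48.7 and 80.0 CPM (0.71). In immune cells, where 12.1% of all genes were lower and 6.35% higher, 18 of 40 replication genes were lower and 0 higher, among them Mcm10 (20.4 and 7.77 CPM, -1.38) and Pole2 (-1.21). Of 10 inhibitors 3 were higher there: Cdkn1c (1.08), Cdkn2d (0.55) and Cdkn2c (0.51).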

How the data were processed

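Per the labels and the study's methods, dorsal skin of 1 wildtype and 1 Eppk1-/- mouse was dissociated, fixed and hybridised with 10x Flex probes, and the authors counted the reads with Cell Ranger (8.0.1 in the file headers) against mm10. The deposited values are whole UMI counts per gene and cell, filtered to cells and not normalised. No reads were used here.

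Filters on the cells left 8875 of 9179 wildtype and 8617 of 8811 knockout cells: UMIs had to lie between 200 and 45000, genes between 100 and 7500, and the mitochondrial share could not pass 10%. The counts were log-normalised to 10000. Of 2000 variable genes, 1968 were used, without the listed cell cycle genes and the histone genes. With 50 principal components, RPCA integration and a resolution of 0.5 they gave 26 clusters (Seurat 5.3.0). Keratinocytes were clustered again into 14 sub-clusters. A cluster was named where at least 3 markers were raised in it, by a rule set after the clusters were seen. Scrublet scores (scanpy 1.11.5, rate 0.06) marked 425 wildtype and 217 knockout cells, the wildtype ones as the highest 5% because its own threshold marked only 2. They were removed only as an alternative. Between the libraries, 1211 droplet barcodes were shared. Totals were 77638793 and 65118304 UMIs, with medians of 4941 and 4992 in kept cells.

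UMIs were summed per gene, type and library and divided by the summed UMIs (CPM), with exact Poisson intervals. Log2 ratios, knockout over wildtype, had 0.5 UMI added to each sum and an interval from the exact binomial split of the UMIs. Shares of cells were taken after thinning each cell to 2000 UMIs, leaving out 1122 wildtype and 1122 knockout cells with fewer, with Clopper-Pearson intervals, and a share of 0 was given the limit that 3 counts set. PCR duplicates were collapsed by UMI, and all intervals and limits cover counting error only. With 1 library per genotype no test was made. The genes named are the listed members, and from other lists the extremes by ratio with at least 50 UMIs over both libraries. A further gene that this rule picks is not reported here. The members and lists were chosen with earlier results of these data known. The ratios, their intervals and the size rule were tried on simulated keratinocyte sums, drawn as Poisson counts per gene and library. No cells were simulated, so the summing over cells and the spread between cells were not tested. TMM factors came from edgeR 4.0.16 and served only as an alternative. Promoters were from RefSeq on GRCm38.p6. In all, 16 alternatives were planned, and 4 were added after seeing the data: leaving out the cells with at least 4 G2/M genes, leaving out the keratinocyte sub-cluster led by Ccna2, leaving the genes correlated with cell cycle genes out of the clustering, and weighting the keratinocyte compartments by their wildtype shares.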

Additional observations from a re-analysis of the deposited data

Results flagged for a closer look

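G2/M transcripts were also found in cells that no comparison of the report used, the clusters left without a name. In the cluster led by Ighm and Lyz1 the 21 G2/M genes had 633 UMIs in the wildtype library (192 cells, 552 CPM) and 481 UMIs in the knockout library (242 cells, 310.0 CPM), and 9 of 141 and 7 of 200 thinned cells had at least 4 of the genes. The closest name of this cluster was macrophage, with 6 macrophage markers raised, and Il1b and Ccr2 were among its 10 leading genes. The cluster led by Lce1a2 and Lce1b had 6 UMIs in wildtype (51 cells, 6.48 CPM) and 6 in knockout (37 cells, 8.73 CPM). The cluster led by Cyp2g1, which held knockout cells only, had 4 UMIs in 55 cells. There were no control samples for these counts. Only counts above 3 were listed, so their being above 3 is not a result. The CPM of the cluster led by Lce1a2 and Lce1b were below the 24.6 and 42.2 CPM of granular cells.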

How the results depend on the processing

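Over the 12 values followed, 160 values were computed under 16 other ways of processing and 4 more that were chosen after seeing the data. Of these, 119 stayed the same, 39 moved and 2 turned the direction of a ratio whose interval lay off 0. A ratio or share stayed the same when it lay within the interval for counting error of the main value. Counts of genes were judged by a fixed factor between the 2 counts instead, which does not measure counting error. No paired analysis was possible because each genotype had 1 library. For the same reason no library was left out, and the spread between replicates is unknown. The cause of the shifts below was not tested.

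Without the cells with at least 4 G2/M genes, the log2 ratio of the G2/M sum was 0.22 in fibroblasts instead of -1.43. That of the S sum in fibroblasts was 0.0072 instead of -0.089. The G2/M ratio was 0.20 in basal cells (0.14), 0.42 in keratinocytes (0.30) and -0.41 in immune cells (-0.23). By the size, 10 genes instead of 2 were higher in knockout keratinocytes. For this and the other counts of genes below, no share of all genes was computed. As a mean over cells, the G2/M ratio was 0.26 in basal cells, -0.97 in fibroblasts and -0.78 in immune cells, and the S ratio -0.023 in fibroblasts and -0.12 in immune cells. With cell cycle genes kept in the clustering, the G2/M ratio was -0.72 in fibroblasts and 0.23 in keratinocytes, with 1 gene higher. With correlated genes left out of it, the basal ratios were 0.27 (G2/M) and 0.15 (S). Without integration the G2/M ratio was 0.084 in basal cells and -1.18 in fibroblasts. Without a cell filter the fibroblast ratios were -1.11 (G2/M) and -0.022 (S), and without doublets the S ratio was -0.033. Without shared barcodes the G2/M ratio was -1.78 in fibroblasts and 0.24 in keratinocytes, with 1 gene higher and 1 lower. Thinned, it was -1.08 in fibroblasts and 0.24 in keratinocytes, with 1 gene lower instead of 0. With compartments weighted by wildtype shares, the keratinocyte ratios were 0.19 (G2/M) and 0.12 (S). As medians of genes, they were 0.22 and 0.28, and the S ratio was -0.31 in fibroblasts and -0.28 in immune cells. With TMM scaling the S ratio of immune cells was 0.032 instead of -0.036, which turned the sign of a ratio whose interval included 0. With at least 200 UMIs, 1 gene was higher in keratinocytes. The share of keratinocytes with at least 4 G2/M genes, 2.13% and 3.03%, was 1.64% and 2.18% for at least 6 genes, 2.58% in wildtype for at least 3, and 2.75% and 3.75% without thinning.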

Other observations

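Genes outside all the lists that went with the G2/M genes were read in basal cells, between the 86 wildtype and 88 knockout cells with at least 4 G2/M genes and the 1299 and 965 cells with none. The 4598 genes considered had a UMI in at least 25% of the cells with at least 4 G2/M genes in either library. Of them, 367 were higher by at least 1 on the log2 scale in both libraries and 29 were lower. The filter favours genes that are high in these cells, so the counts of higher and lower genes cannot be compared. Ranked by the smaller of the ratios in the libraries, the highest were Kif18b, Kifc1 and Kif14, which encode kinesins of the spindle. Kifc1 was 153 CPM against 0.316 in wildtype and 118 against 0.222 in knockout. Neil3, a DNA glycosylase, Spag5, Parpbp, Prr11, Mastl, Cenpm and Cenpp were the other 7, and several of these serve the spindle, the kinetochore or mitotic entry.

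The genes that were lower in the cells with at least 4 G2/M genes were also ranked only among genes outside all the lists. Some listed genes, among them Ccnd1, Cdk6 and Btg1, were lower in these cells too. Igfbp3, a secreted binder of insulin-like growth factors, was 4487 CPM against 17640 in wildtype and 7746 against 19000 in knockout basal cells. Ctsl, which encodes the protease cathepsin L, was 71.7 against 443 CPM and 106 against 432 CPM. Adam8, a membrane protease, was 78.2 against 269 and 113 against 320 CPM, and Ptgs2, which encodes the prostaglandin synthase COX-2, was 788 against 1801 and 741 against 1717 CPM. Rab38, Kdm7a, Ifi202b, Bcar3, Dapl1 and Sgms1 were the other 6. Adam8 and Ptgs2 were also among the leading genes of the largest basal sub-cluster (902 and 786 cells), whereas most of the cells with at least 4 G2/M genes were in another one.

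Endothelial cells had the highest G2/M sum of the named types outside the keratinocytes, at 391 CPM in wildtype and 870 in knockout, but from 105 and 62 cells. Of the thinned endothelial cells, 1 of 35 and 2 of 33 had at least 4 of the genes, and these 3 cells held 74.5% and 70.7% of the UMIs. Stmn1 was higher in knockout keratinocytes, basal cells, spinous, granular, infundibulum and bulge or germ cells, and in immune cells and macrophages (71.6 and 114 CPM), and lower in fibroblasts and sebocytes.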
